A study of Mus musculus with 12 samples.

Results

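The 48 genes described here encode chromatin remodellers and enzymes that modify histones or DNA. They were chosen by symbol, and all 48 were found among the 19424 genes for which counts could be followed in every group. By role they comprise 5 genes of Polycomb repressive complex 2 (PRC2), 5 of Polycomb repressive complex 1 (PRC1), 4 histone demethylases, 4 CHD remodellers, 10 SWI/SNF subunits, 2 histone acetyltransferases, 6 histone deacetylases (HDACs), 6 genes of DNA methylation and TET oxidation, and 6 genes of H3K9 methylation and heterochromatin. RNA was sequenced from whole embryonic hearts of CD1 mice at E11.5 and E12.5, with 3 libraries in each of 4 groups. Control embryos were *Mesp1Cre;Hira+/fl* and mutant embryos were *Mesp1Cre;Hira-/fl*, so all embryos carried the Cre driver and a floxed *Hira* allele, and the other allele was wild type in controls and a constitutive null in mutants. *Mesp1Cre* recombines the floxed allele in early cardiac mesoderm and its descendants, so cells of other origin in a mutant heart keep a floxed allele beside the null. Control embryos can likewise lose the floxed allele in the *Mesp1* lineage and keep the wild-type one.

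HIRA is a chaperone that places the histone variant H3.3 into chromatin outside of replication, and the list holds enzymes that act on the same nucleosomes. Polycomb complexes methylate histone H3 at lysine 27 (PRC2) and ubiquitinate H2A (PRC1) at silenced developmental genes, and demethylases of the KDM6 kind remove the PRC2 mark. SWI/SNF and CHD proteins use ATP to slide or evict nucleosomes, acetyltransferases and deacetylases add and remove acetyl groups, DNMT enzymes methylate cytosine and TET enzymes oxidise that mark. In the embryonic heart these proteins are known for keeping the order of gene programmes in chamber muscle, endocardium and cushions.

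The total number of reads counted on genes lay between 11994148 and 17483982 per library. Levels are CPM, a library's count of a gene scaled to a common library size by TMM, and group values are mean ± SD (n = 3). RPKM, which divides CPM by gene length in kilobases, was used wherever different genes were set side by side. Differences are log2 fold changes from edgeR's quasi-likelihood test, and a gene was called when its Benjamini-Hochberg adjusted p over all genes tested was at most 0.05. The SE beside a difference was derived from that test, as the absolute log2 fold change over the square root of its F statistic. With 3 libraries against 3, an exact permutation test cannot give a two-sided p under 0.1. Y-linked genes were counted at a high level in 3 libraries of the E11.5 controls and in 1 library of each of the other groups, so sex and genotype were partly tied together at E11.5. Nothing in the labels says whether a library is 1 heart or several, so p-values measure the spread between these libraries, which may be technical in part.

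*Hira* itself, counted over the whole gene, stood at 79.5, 86.2 and 68.6 CPM in the E11.5 controls and at 73.7, 57.0 and 63.3 CPM in the E11.5 mutants. At E12.5 it stood at 78.0, 86.5 and 60.7 CPM in controls and at 79.7, 71.0 and 70.4 CPM in mutants. The libraries of both genotypes overlapped at each stage, and the log2 fold change was -0.26 (SE 0.14) at the earlier and -0.01 (SE 0.12) at the later stage, with adjusted p = 0.607 and 0.962 (edgeR). Reads of the deleted part cannot be told apart from the rest of the gene in these counts, so the level of *Hira* per gene could not be used to check the labels.

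In control hearts the 48 genes spanned a wide range of levels per length. *Trim28*, the corepressor of KRAB zinc finger proteins, was highest at 177 ± 17.5 RPKM (SD, n = 6 control libraries), followed by the class I deacetylases *Hdac2* at 166 ± 15.2 RPKM and *Hdac1* at 105 ± 9.91 RPKM. *Smarcd3*, the cardiac SWI/SNF subunit, stood at 86.2 ± 5.94 RPKM and *Chd4*, the ATPase of the NuRD complex, at 86.1 ± 14.1 RPKM. The lower end held *Dnmt3b* at 3.89 ± 0.475 RPKM, *Tet1* at 2.56 ± 0.599 RPKM, *Prdm16* at 2.19 ± 0.658 RPKM and *Cbx7* at 0.625 ± 0.178 RPKM. The median over the 48 genes was 21.8 RPKM and that over all genes tested 11.6 RPKM, and 33 of the 48 lay at or above the latter. Ranked by mean, 45 of the 47 neighbouring pairs had overlapping ranges over the 6 control libraries. The pairs without overlap were *Hdac2* above *Hdac1* and *Prdm16* above *Cbx7*.

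Few of these genes differed between mutant and control hearts. At E11.5, 0 of the 47 members tested were called, where 0.115% of all 12197 genes tested were called. *Cbx7* had too low a mean at E11.5 to enter that test. An unadjusted p under 0.05 was found for 1 member, *Dnmt3b*, or 2.13%, and for 10.2% of all genes. DESeq2 and limma also called 0 members, and 2.26% and 0.221% of all genes. At E12.5, 1 of 48 members was called, *Hdac9*, which is 2.08% against 5.0% of all 12257 genes tested. It was lower in mutants, and 2.27% of all genes were called lower. An unadjusted p under 0.05 was found for 11 members (22.9%) and for 21.4% of all genes. With both stages in 1 fit and stage as a covariate, *Dnmt3b* and *Hdac7* were called, 4.17% of the members against 6.85% of all 12270 genes. Both were higher in mutants, as 3.78% of all genes were. An unadjusted p under 0.05 was found for 8 members (16.7%) and for 19.4% of all genes. No called member reached a 1.5-fold change, a size that 0.115%, 2.95% and 3.22% of all genes combined with a call at E11.5, at E12.5 and over both stages. The median log2 fold change of the members was 0.03 at E11.5, -0.06 at E12.5 and -0.01 over both stages, and the medians over all genes lay at 0.00 in each case.

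**Figure D1:**
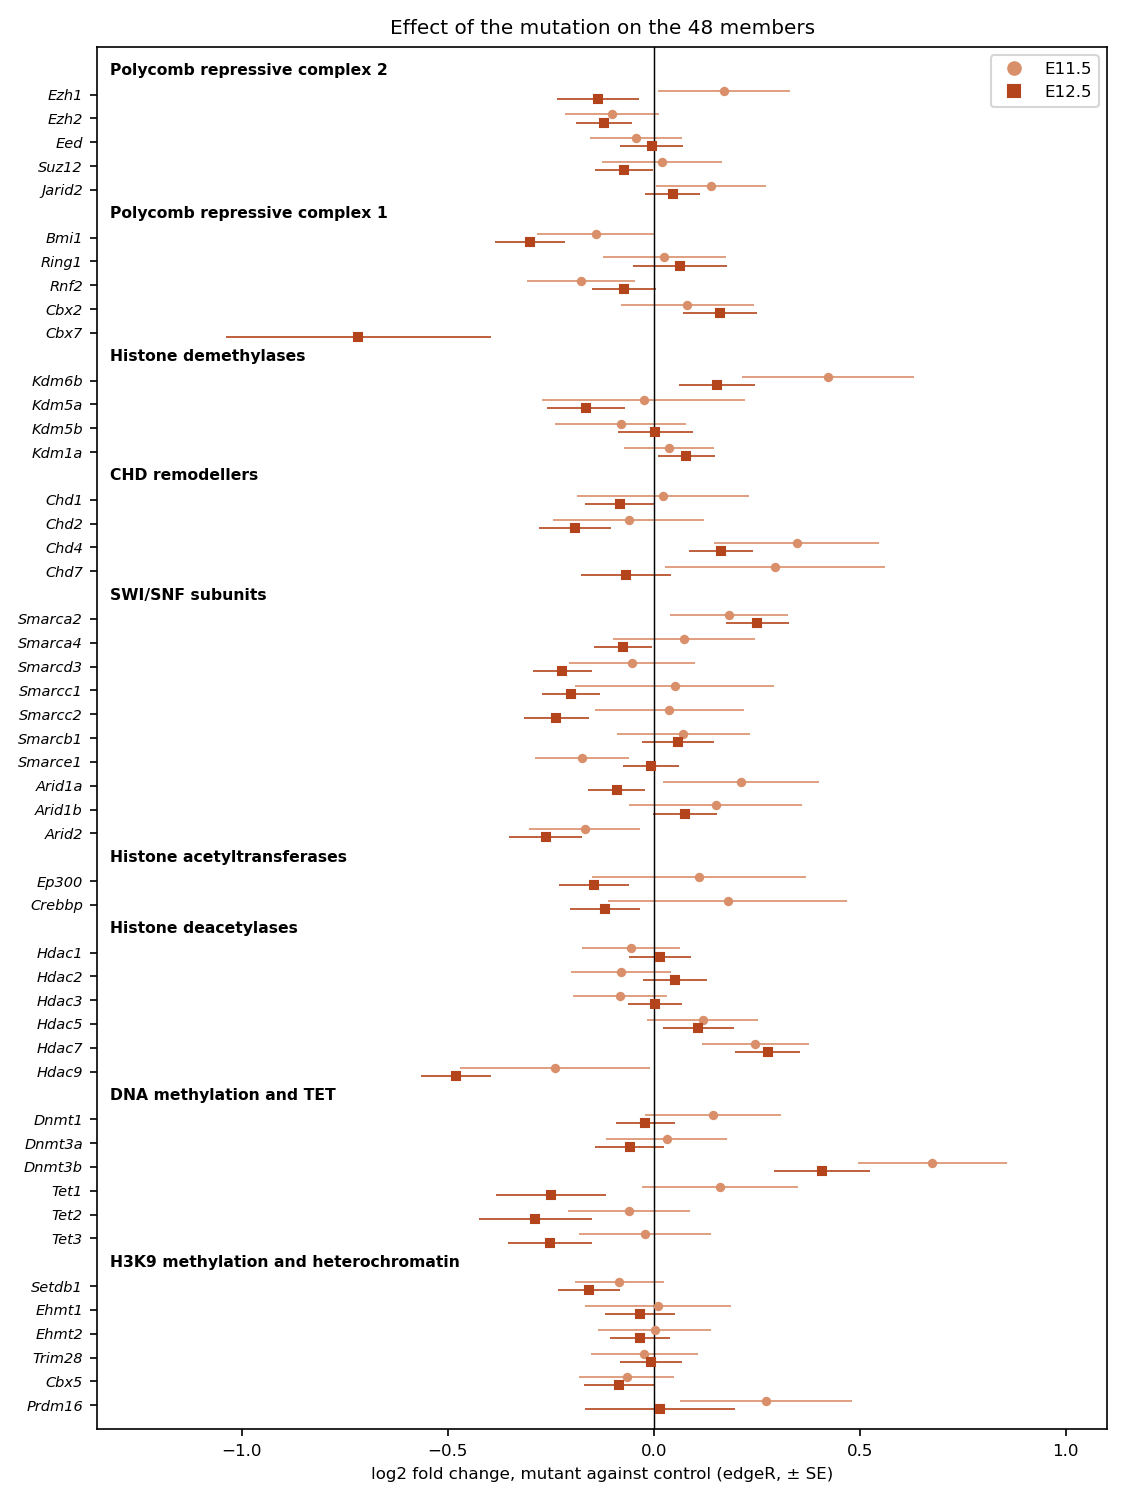
The log2 fold change between mutant and control hearts (x axis) is drawn for each of the 48 genes by class. Circles are for E11.5 and squares for E12.5, with bars of 1 SE derived from edgeR's F statistic. Most points lie within 0.3 of 0, and *Dnmt3b* stands to the right at both stages. *Hdac9* and *Cbx7* stand to the left at E12.5, with log2 fold changes of -0.48 and -0.72, and of these *Hdac9* alone was called.

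Among the genes of DNA methylation, *Dnmt3b* encodes a de novo methyltransferase that sets cytosine methylation in the early embryo. It lies on chromosome 2 from 153649450 to 153687730 of mm10. Its level was 16.6, 18.7 and 13.8 CPM in the E11.5 controls and 24.6, 31.4 and 22.0 CPM in the E11.5 mutants. At E12.5 it was 15.7, 19.4 and 16.7 CPM in controls and 24.2, 20.5 and 23.4 CPM in mutants. Every mutant library lay above every control library of its stage (exact permutation p = 0.1 at each stage, the smallest that 3 against 3 can give). Over both stages *Dnmt3b* was upregulated by 0.54 on the log2 scale (SE 0.11, adjusted p = 0.00994, edgeR), a fold of 1.46. At the single stages it differed by 0.68 (SE 0.18, adjusted p = 0.211) and 0.41 (SE 0.12, adjusted p = 0.0706), neither past the threshold. With a term for sex, the change over both stages was 0.50 (adjusted p = 0.0214) and that at E11.5 was 0.45 (adjusted p = 0.308). *Dnmt3b* was called over both stages in each of the 20 alternative fits run, with adjusted p from 0.000243 to 0.0276.

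The summed level of 7 markers of neural crest and neurons was also higher in mutants. It stood at 17.2 to 27.9 CPM in E11.5 controls and 32.6 to 64.7 CPM in E11.5 mutants, and at 11.3 to 16.8 CPM and 41.1 to 47.0 CPM at E12.5. Most of the sum came from *Stmn2* and *Tubb3*, genes of differentiating neurons. At E11.5, 0 of the 4 markers tested were called, and *Th*, of catecholamine synthesis, had -1.10 on the log2 scale (adjusted p = 0.326, edgeR) and -0.46 over both stages (adjusted p = 0.467). At E12.5, the 3 markers tested, *Prph*, *Tubb3* and *Stmn2*, were called higher. Their part in the *Dnmt3b* result was not tested, and in whole hearts a change in cell numbers and a change in RNA per cell cannot be told apart.

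The other 5 genes of this class were not called for genotype. *Dnmt1*, the maintenance methyltransferase, had log2 values of 0.14 at the earlier and -0.02 at the later stage, and *Dnmt3a*, the other de novo enzyme, 0.03 and -0.06. The 3 TET genes had negative values at E12.5, -0.25 for *Tet1*, -0.29 for *Tet2* and -0.25 for *Tet3*. *Tet3* had an unadjusted p of 0.0304 and all its E12.5 mutant libraries, at 78.6, 67.4 and 75.2 CPM, lay below its controls at 102, 85.6 and 78.9 CPM. After the correction for gene length described further on, the *Tet3* value moved to -0.10 (adjusted p = 0.46).

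The deacetylases held the other called genes, and these 2 moved in opposite directions. Both belong to class IIa, whose proteins shuttle between nucleus and cytoplasm and bind MEF2 transcription factors. *Hdac9* lies on chromosome 12 from 34371503 to 34528889 of mm10. Its level was 59.8, 55.5 and 60.4 CPM in E12.5 controls and 39.0, 44.7 and 41.0 CPM in E12.5 mutants, and the groups did not overlap. It was downregulated at E12.5 by 0.48 on the log2 scale (SE 0.08, adjusted p = 0.0121, edgeR), and the call held without each of the 6 libraries in turn. In a fit of all 12 libraries the same change had an adjusted p of 0.294. At E11.5 *Hdac9* stood at 41.6, 52.0 and 39.9 CPM in controls and at 39.8, 48.3 and 24.2 CPM in mutants, where the groups overlapped and the difference was -0.24 (SE 0.23, adjusted p = 0.841) without and -0.86 (adjusted p = 0.106) with a term for sex. Over both stages the value was -0.36 (SE 0.13, adjusted p = 0.135), and a term for sex brought it past the threshold (-0.47, adjusted p = 0.0433).

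*Twist1*, a cushion transcription factor gene that shares chromosome 12 with *Hdac9* and lies from 33957671 to 33959817, had -0.02 on the log2 scale (SE 0.11, adjusted p = 0.941) at E12.5. Summed over 8 markers of cushion mesenchyme, E12.5 controls stood at 3379 to 3812 CPM and mutants at 2889 to 3343 CPM, with 1 of 8 markers called lower. The part of these cells in the *Hdac9* result was not tested.

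*Hdac7*, which is known from endothelium, lies on chromosome 15 from 97792664 to 97844502. It stood at 109, 115 and 89.8 CPM in E11.5 controls and 124, 130 and 116 CPM in E11.5 mutants, then at 110, 125 and 117 CPM in E12.5 controls and 150, 141 and 131 CPM in E12.5 mutants. The genotypes did not overlap at either stage. Over both stages it was upregulated by 0.26 (SE 0.07, adjusted p = 0.0379, edgeR), a smaller change than that of *Dnmt3b*. The call was lost without each of 8 libraries in turn, with an adjusted p of up to 0.097, and with a term for sex (0.27, adjusted p = 0.0524). Of 8 endothelial and endocardial markers, *Pecam1* (0.38, adjusted p = 0.0264) and *Nfatc1* (0.61, adjusted p = 0.00879) were also called higher over both stages, and 0 at either stage alone. The 8 markers summed to 1059.6 to 1303.8 CPM in E11.5 controls and 1260.45 to 1862.9 CPM in E11.5 mutants, and to 1349 to 1407 CPM and 1327 to 1647 CPM at E12.5. Their part in the *Hdac7* result was not tested.

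The 4 remaining deacetylases were close to 0 in both comparisons. *Hdac1*, *Hdac2* and *Hdac3*, the catalytic subunits of the class I complexes, ranged from -0.08 to 0.05 on the log2 scale at the single stages, and *Hdac5*, the further class IIa gene, had 0.12 at E11.5 and 0.11 at E12.5. *Hdac9* and *Hdac7* have similar lengths, 4428 and 4960 bases, so their RPKM can be set in proportion. *Hdac9* was 0.498 to 0.61 of *Hdac7* in E12.5 controls and 0.291 to 0.354 in E12.5 mutants. In these libraries *Hdac9* was already lower and *Hdac7* higher in every mutant, so separate proportions follow and add nothing to the calls. At E11.5 the proportions were 0.429 to 0.507 in controls and 0.234 to 0.418 in mutants.

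**Figure D2:**
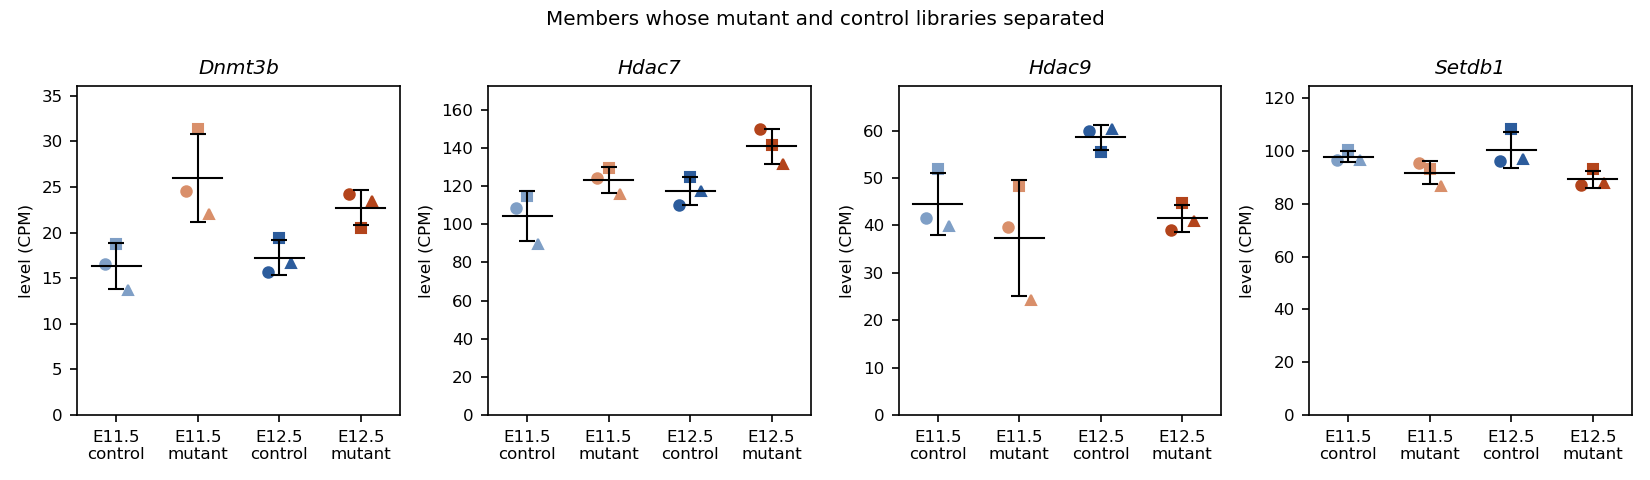
Levels in CPM (y axis, from 0) are drawn for *Dnmt3b*, *Hdac7*, *Hdac9* and *Setdb1* in each library of the 4 groups, with circles, squares and triangles for replicates 1, 2 and 3, a line at the mean and bars of 1 SD. Mutant libraries lie above control libraries at both stages for *Dnmt3b* and *Hdac7* and below them at both stages for *Setdb1*, while *Hdac9* separates at E12.5 alone.

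The upstream sequences of *Hdac9* and *Dnmt3b* are shown because they differ in CG content. RefSeq promoter windows on GRCm38.p6 were found for 38 of the 48 genes, with 51 start sites. The 250 bases before each start held a median of 21 CG dinucleotides in these 51 windows and of 6 in all 32851 windows. *Dnmt3b* was at the median of the list, with 21, and *Hdac9* far under it, with 0 and 2 at its 2 start sites. *Hdac7* has 4 start sites in RefSeq, with 25, 6, 21 and 5, and the one with 6 ends where the gene of the deposited files begins. The windows of *Hdac9* and *Dnmt3b* are printed 5′ to 3′ on the gene's strand, with CG in capitals. The first *Hdac9* window is chr12:34917096-34917345 (− strand), the second is chr12:34528890-34529139 (− strand) and ends where the gene of the deposited files begins, and that of *Dnmt3b* is chr2:153649199-153649448 (+ strand).
*Hdac9* upstream start: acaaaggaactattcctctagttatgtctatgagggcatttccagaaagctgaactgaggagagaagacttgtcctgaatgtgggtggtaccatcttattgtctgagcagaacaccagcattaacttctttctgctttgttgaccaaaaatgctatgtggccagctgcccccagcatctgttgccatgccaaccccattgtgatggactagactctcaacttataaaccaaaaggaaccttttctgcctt
*Hdac9* downstream start: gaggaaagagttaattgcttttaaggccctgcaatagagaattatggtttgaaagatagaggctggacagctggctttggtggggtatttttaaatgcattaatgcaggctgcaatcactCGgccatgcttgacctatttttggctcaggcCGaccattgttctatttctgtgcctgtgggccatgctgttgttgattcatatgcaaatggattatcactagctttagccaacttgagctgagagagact
*Dnmt3b* start: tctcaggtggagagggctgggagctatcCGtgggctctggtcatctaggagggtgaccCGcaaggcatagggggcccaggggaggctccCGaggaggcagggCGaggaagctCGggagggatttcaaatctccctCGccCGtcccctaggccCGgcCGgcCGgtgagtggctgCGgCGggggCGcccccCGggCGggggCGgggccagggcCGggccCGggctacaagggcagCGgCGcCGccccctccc
Which start the hearts used is not visible in counts per gene.

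The SWI/SNF complex had no called member for genotype, and its 10 subunits did not move together. At E12.5, 7 were negative and 3 positive, with a median of -0.08. After the correction for gene length described further on, 4 were negative and 6 positive, with a median of 0.01. Of the 10, 5 had an unadjusted p under 0.05 before that correction, as did 21.4% of all genes. *Smarcc1* and *Smarcc2*, the paired scaffold subunits, stood at 291 ± 11.6 and 237 ± 15.9 CPM in E12.5 controls and at 251 ± 9.85 and 199 ± 12.7 CPM in mutants (SD, n = 3). Their log2 fold changes were -0.20 (SE 0.07, adjusted p = 0.127) and -0.24 (SE 0.08, adjusted p = 0.116). *Smarcd3* had -0.22 (SE 0.07, adjusted p = 0.105) and *Arid2*, a subunit of the PBAF form, -0.26 (SE 0.09, adjusted p = 0.119). *Arid2* stood at 128, 105 and 108 CPM in E12.5 controls and 98.4, 91.1 and 92.5 CPM in E12.5 mutants, and its E11.5 libraries, at 94.5, 102 and 98 CPM in controls and 97.5, 90.7 and 72.2 CPM in mutants, overlapped. The libraries of these 4 genes did not overlap at E12.5, nor did those of *Smarca4*, the ATPase BRG1, at -0.07. Such separation was found for 26.4% of all genes. After length correction *Smarcd3* was called (-0.25, adjusted p = 0.0447, edgeR). *Smarcc1*, *Smarcc2* and *Arid2* were called at E12.5 in 0 of 14 alternative fits.

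*Smarca2*, which encodes the alternative ATPase BRM, went the other way. Its E12.5 levels were 72.4, 79.0 and 67.9 CPM in controls and 88.1, 85.9 and 84.6 CPM in mutants, with no overlap. On the log2 scale the difference was 0.25 (SE 0.08, adjusted p = 0.0873, edgeR), short of the threshold, and 0.34 with an adjusted p of 0.0266 after correction for gene length. At E11.5 the *Smarca2* libraries overlapped (58.2, 60.4 and 51.2 CPM against 69.8, 69.2 and 52.7 CPM). Since the 2 ATPase genes have lengths of 6086 and 6376 bases, their RPKM can be compared with little weight on length. *Smarca2* was 0.229 to 0.247 of *Smarca4* in E12.5 controls and 0.291 to 0.307 in E12.5 mutants. The E11.5 proportions overlapped, at 0.173 to 0.23 in controls and 0.192 to 0.23 in mutants.

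No Polycomb gene among the members was called for genotype. Of PRC2, *Ezh2*, the methyltransferase, had -0.10 at E11.5 and -0.12 at E12.5, *Eed*, which binds the methylated lysine, had -0.04 and -0.00, and *Suz12* had 0.02 and -0.07. *Jarid2*, a PRC2 cofactor known for its part in heart growth, had 0.14 and 0.05, and *Ezh1* 0.17 and -0.14. The lowest unadjusted p among these Polycomb members at E12.5 was that of *Bmi1*, a PRC1 subunit, at 0.00439 (edgeR). *Bmi1* stood at 60.2, 58.8 and 61.5 CPM in E12.5 controls and at 49.7, 51.5 and 44.0 CPM in mutants, and the groups did not overlap. On the log2 scale it differed by -0.30 (SE 0.08, adjusted p = 0.0675, edgeR), and at E11.5 it was -0.14 with overlapping libraries. *Rnf2* and *Ring1*, the ubiquitin ligases of PRC1, had -0.07 and 0.06 at E12.5. The chromobox genes diverged in sign, *Cbx2* at 0.16 and *Cbx7* at -0.72 (SE 0.32, unadjusted p = 0.0478), and *Cbx7* was counted at 2.4, 2.3 and 2.1 CPM in controls and 2.0, 1.2 and 0.9 CPM in mutants.

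Demethylases, CHD remodellers and acetyltransferases likewise held no call for genotype. *Kdm6b*, which removes methyl groups from H3 lysine 27, had 0.42 (SE 0.21, adjusted p = 0.556) at E11.5, where its libraries stood at 81.1, 94.1 and 54.5 CPM in controls and 122, 95.5 and 88.1 CPM in mutants. At E12.5 its value was 0.15 (SE 0.09, adjusted p = 0.376). *Chd4* had 0.35 (SE 0.20, adjusted p = 0.64) and 0.16 (SE 0.08, adjusted p = 0.249), with 478, 614 and 405 CPM in E11.5 controls and 707, 708 and 479 CPM in E11.5 mutants. In both genes replicate 3 was the lowest library of each E11.5 group. Over both stages *Kdm6b* and *Chd4* had 0.29 and 0.26, with adjusted p = 0.217 and 0.224. After length correction, where 5 members and 9.29% of all genes were called, they passed the threshold, as did *Smarca2*, with 0.33 (adjusted p = 0.0383), 0.29 (adjusted p = 0.0179) and 0.25 (adjusted p = 0.0105). *Kdm1a*, *Kdm5a* and *Kdm5b* lay between -0.16 and 0.08 at both stages, *Chd1*, *Chd2* and *Chd7* between -0.19 and 0.29, and the acetyltransferases *Ep300* and *Crebbp* between -0.15 and 0.18.

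The heterochromatin genes had no call for genotype. *Ehmt1*, *Ehmt2*, *Trim28* and *Cbx5*, the HP1 alpha gene, lay between -0.08 and 0.01 at both stages. *Setdb1*, the H3K9 methyltransferase recruited by TRIM28, is named because its libraries separated at both stages, a choice made after its values were seen. It stood at 96.6, 100.3 and 96.6 CPM in E11.5 controls and 95.4, 93.2 and 86.8 CPM in mutants, then at 96.2, 108 and 96.9 CPM in E12.5 controls and 87.1, 93.0 and 87.7 CPM in mutants. The log2 fold changes were small, -0.08 (SE 0.11, adjusted p = 0.9) and -0.16 (SE 0.07, adjusted p = 0.253, edgeR). *Prdm16* had 0.27 (SE 0.21) at E11.5 and 0.02 (SE 0.18) at E12.5.

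Counted as separation alone, 4 of the 47 members (8.51%) had non-overlapping genotypes at E11.5, against 16.4% of all genes tested, 2 of them higher (4.26% against 7.74%) and 2 lower (4.26% against 8.62%). At E12.5, 18 of 48 (37.5%) did, against 26.4% of all genes, with 14 lower in mutants (29.2% against 14.2%) and 4 higher (8.33% against 12.1%). Of the 47 members tested at both stages, 3 separated in the same direction at each, against 6.53% of all genes. They were *Dnmt3b* and *Hdac7*, higher in mutants (3.08% of all genes), and *Setdb1*, lower (3.45%). Separation was not recounted after length correction. Of the 48 log2 fold changes at E12.5, 17 were positive (35.4%, against 49.7% of all genes), and after length correction 26 were, with 4 members called (4.67% of all genes): *Hdac9*, *Hdac7*, *Smarca2* and *Smarcd3*. The median of the 25 members of 5000 bases or longer moved from -0.08 to 0.03 under that correction, and the median of the 23 shorter ones stayed near -0.01 and 0.00.

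The mutant effect was also compared between stages, by subtracting the E11.5 effect from the E12.5 effect. No member was called, nor was any of the 12270 genes tested, and an unadjusted p under 0.05 was found for 0 of 48 members and for 4.49% of all genes. Of the 48 differences, 13 were positive (27.1%, against 49.8% of all genes), with a median of -0.10. Among the 25 long members 23 were negative, and 14 were after length correction.

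Between stages, *Tet2*, *Crebbp*, *Chd2*, *Smarca2* and *Bmi1* rose and *Eed* fell. With genotype as a covariate, these 6 of 48 were called, 12.5% against 12.2% of all 12270 genes tested. Of these, 5 were upregulated at E12.5 (6.71% of all genes were) and 1 was downregulated (5.53% of all genes were). *Tet2* and *Crebbp* also reached 1.5-fold (4.17%, against 3.78% of all genes). An unadjusted p under 0.05 was found for 20 members (41.7%) and 32.6% of all genes. The labels do not separate stage from collection and library preparation, so their parts in every stage difference given here cannot be told apart. *Tet2*, an oxidase gene known from blood formation, stood at 29.6, 36.9 and 29.1 CPM in E11.5 controls and 33.9, 30.4 and 26.8 CPM in E11.5 mutants. At E12.5 it stood at 60.7, 49.6 and 47.5 CPM in controls and 49.2, 44.6 and 34.2 CPM in mutants. *Tet2* was upregulated with stage by 0.61 (SE 0.11, adjusted p = 0.00523, edgeR), a fold of 1.53, and all but 1 of the E12.5 libraries lay above all 6 E11.5 libraries.

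*Crebbp*, the acetyltransferase CBP, was upregulated by 0.59 (SE 0.17, adjusted p = 0.0372). Its E11.5 levels were 32.4, 49.3 and 27.1 CPM in controls and 51.9, 45.6 and 24.8 CPM in mutants, and its E12.5 levels were 63.8, 59.6 and 58.1 CPM and 57.9, 57.4 and 50.3 CPM. The 6 E11.5 libraries of *Crebbp* were spread over a wide range and the 6 E12.5 libraries over a narrow one. *Chd2*, a remodeller linked to H3.3 deposition at active genes, was upregulated by 0.43 (SE 0.11, adjusted p = 0.0221), from 81.0 ± 13.6 to 114 ± 11.7 CPM in controls and from 77.1 ± 16.4 to 98.9 ± 5.86 CPM in mutants. *Smarca2* was upregulated by 0.40 (SE 0.08, adjusted p = 0.00719), from 56.6 ± 4.83 to 73.1 ± 5.55 CPM in controls and from 63.9 ± 9.7 to 86.2 ± 1.75 CPM in mutants. *Bmi1* was upregulated by 0.27 (SE 0.08, adjusted p = 0.0454), from 47.4 ± 5.98 to 60.2 ± 1.35 CPM in controls and from 42.7 ± 4.3 to 48.4 ± 3.92 CPM in mutants.

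The downregulated member was *Eed*. It stood at 67.6, 66.9 and 74.2 CPM in E11.5 controls and 68.5, 68.8 and 64.1 CPM in E11.5 mutants, against 60.3, 58.1 and 58.4 CPM and 59.6, 60.0 and 54.9 CPM at E12.5. The stages did not overlap, and on the log2 scale *Eed* fell by 0.22 (SE 0.06, adjusted p = 0.0261, edgeR). Its PRC2 partners *Ezh2* and *Suz12* had -0.14 (adjusted p = 0.1) and 0.14 (adjusted p = 0.22). *Hdac9* had 0.28 (SE 0.13, adjusted p = 0.161) with stage and *Dnmt3b* -0.06 (SE 0.11, adjusted p = 0.744).

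These stage calls depended on single libraries. Without replicate 1 or replicate 2 of the E12.5 controls 2 members were called, *Tet2* and *Smarca2*, and 5.43% or 5.32% of all genes were. Without replicate 1 or replicate 2 of the E11.5 mutants 10 members and 19.4% of all genes were called. *Tet2* and *Smarca2* were called without each library in turn, and with a term for sex *Tet2*, *Smarca2* and *Chd2* remained, where 5.79% of all genes were called. In the control libraries alone 6 members and 11.4% of all genes were called, among the members *Tet2* (0.72), *Crebbp* (0.74), *Chd2* (0.49) and *Smarca2* (0.37). In the mutant libraries alone 0 were called by edgeR, and 68 of all genes (0.556%) were, while *Tet2* had 0.49 (adjusted p = 0.354) and *Smarca2* 0.43 (adjusted p = 0.277).

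**Figure D3:**
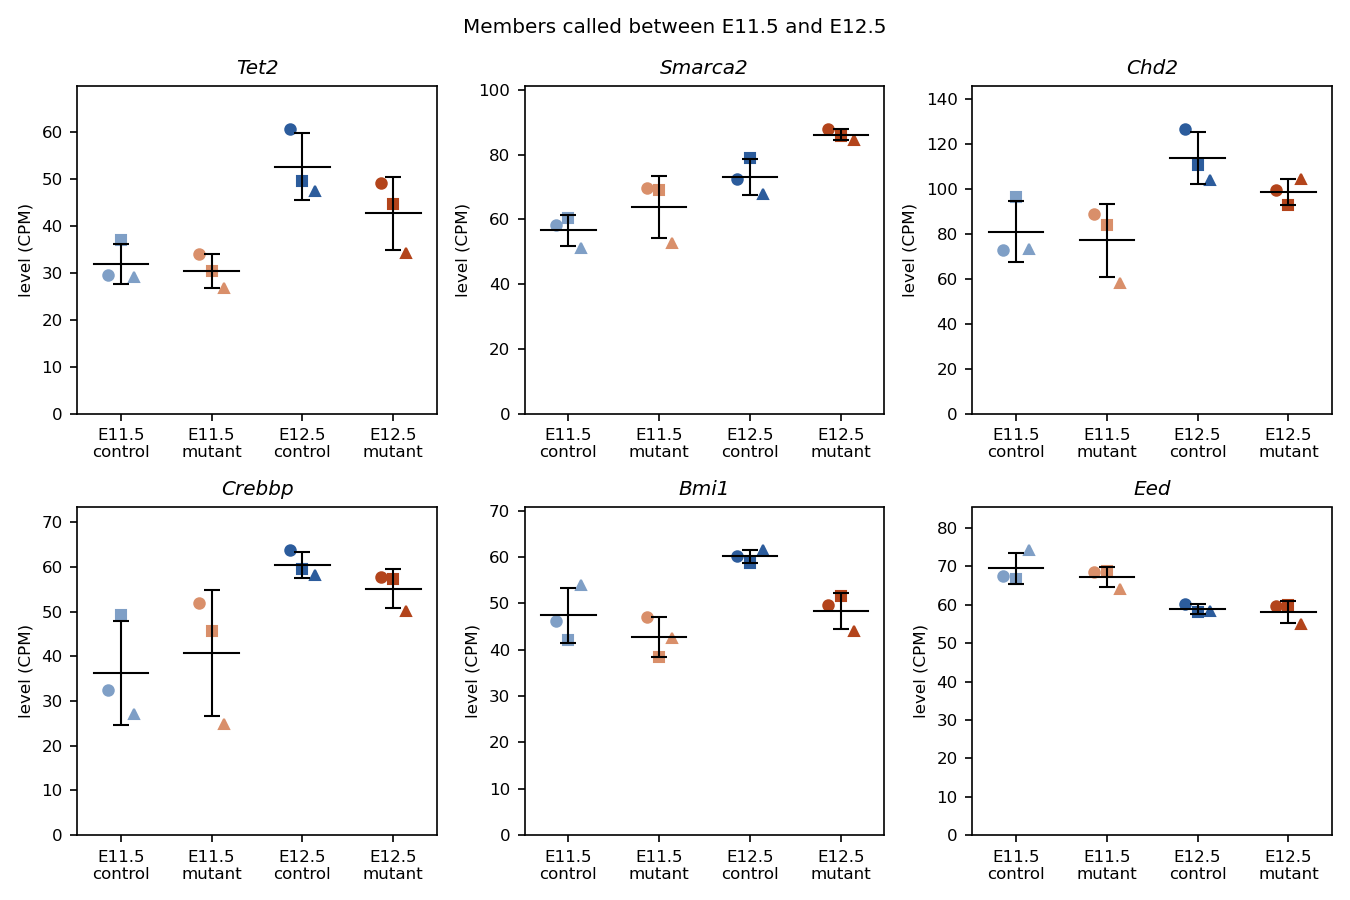
Levels in CPM (y axis, from 0) of the 6 members called between stages are drawn for each library of the 4 groups, with circles, squares and triangles for replicates 1, 2 and 3, a line at the mean and bars of 1 SD. *Tet2*, *Smarca2*, *Chd2*, *Crebbp* and *Bmi1* have higher means at E12.5 in both genotypes, *Eed* has lower ones, and replicate 3 of the E11.5 mutants is the lowest library for *Chd2* and *Crebbp*.

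Gene length has to be read beside the stage values, because the members are long. Their median length, as used by the authors for the deposited values, was 5038.5 bases, from 1657 in *Smarcb1* to 14082 in *Tet1*, against 2866 bases over all genes tested. Over all genes the log2 fold change between stages was higher by 0.12 for each doubling of length. Divided into 5 bins of equal size, the shortest genes, up to 1610 bases, had a median of -0.19 between stages and the longest, from 4764 bases, a median of 0.17. The 26 members in the longest bin had a median of 0.19, close to the other genes of their length. Of the 25 members of 5000 bases or longer, 24 were positive between stages, the exception being *Cbx5*, whereas 8 of the 23 shorter ones were. The slopes per doubling in the genotype comparisons were 0.02 at E11.5 and -0.08 at E12.5.

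The length trend was removed by fitting, in each library, a curve of its deviation on length and using that curve as an offset. The median of the 48 stage differences was 0.15 before this correction and -0.04 after it, and the number of positive values was 32 (66.7%, against 51.2% of all genes) before and 19 after. The median over all genes moved from 0.01 to -0.03. By class, the stage medians before and after were 0.46 and 0.25 for the acetyltransferases, 0.25 and 0.04 for the CHD genes, 0.18 and -0.01 for the demethylases, 0.17 and -0.11 for DNA methylation and TET, 0.14 and -0.00 for PRC2, 0.13 and -0.09 for SWI/SNF, 0.09 and 0.12 for PRC1, -0.01 and -0.13 for heterochromatin and -0.06 and -0.06 for the deacetylases. After correction 9 members were called (all genes 11.2%), 4 higher at E12.5 and 5 lower. *Tet2* (0.34, adjusted p = 0.0245), *Crebbp* (0.39, adjusted p = 0.0353), *Smarca2* (0.23, adjusted p = 0.0193) and *Chd2* (0.17, adjusted p = 0.0479) remained higher by smaller amounts, and *Eed* remained lower (-0.20, adjusted p = 0.0392). *Bmi1* was no longer called (0.19, adjusted p = 0.151). The members called after the correction and not before were *Cbx5* (-0.32), *Trim28* (-0.22), *Dnmt3a* (-0.19) and *Ezh2* (-0.17), all lower. *Cbx5* and *Dnmt3a*, of 8986 and 9852 bases, had -0.04 and 0.09 before it, so their calls rest on the correction.

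**Figure D4:**
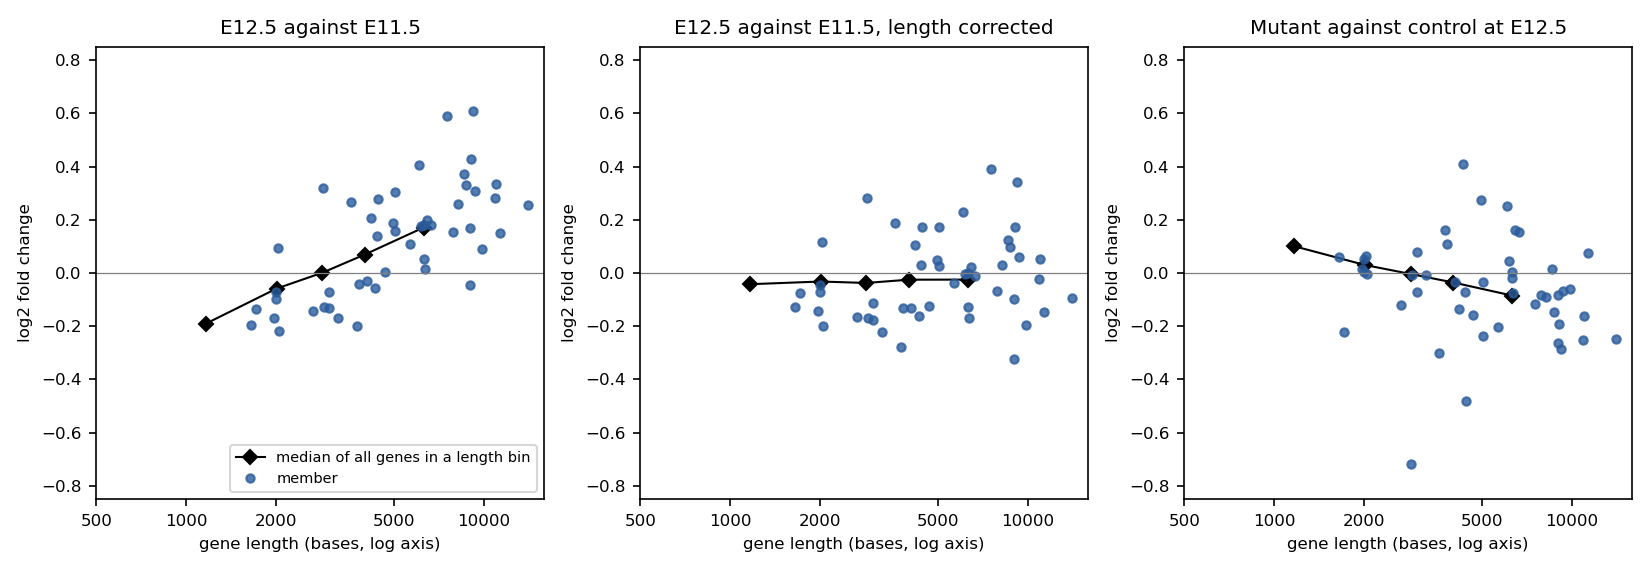
Log2 fold changes of the 48 genes (blue points, y axis) are drawn against gene length in bases (x axis, log scale), with black diamonds for the median of all genes in each of 5 length bins at the bin's median length. Between stages (left) the medians climb from -0.19 to 0.17 and most long members lie on that line. After length correction (middle) the bins lie between -0.04 and -0.02, and at E12.5 between genotypes (right) they descend from 0.10 to -0.08.

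The trend differed from library to library within groups. The slope of a library's deviation on length was -0.08, 0.01 and -0.14 per doubling in E11.5 controls 1 to 3 and 0.05, 0.02 and -0.23 in E11.5 mutants 1 to 3. It was 0.15, 0.09 and 0.04 in E12.5 controls and 0.04, 0.01 and 0.03 in E12.5 mutants. The long members followed, with medians of -0.37 and -0.43 in replicate 3 of the E11.5 controls and mutants and of 0.25 in replicate 1 of the E12.5 controls. Without both E11.5 replicates numbered 3, a setting added after the data were seen, 4 members were called between stages (*Smarca2*, *Tet2*, *Eed* and *Bmi1*), where 5.95% of all genes were. Over both stages 4 were called between genotypes (*Dnmt3b*, *Smarca2*, *Hdac7* and *Smarcd3*), where 5.69% of all genes were.

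**Figure D5:**
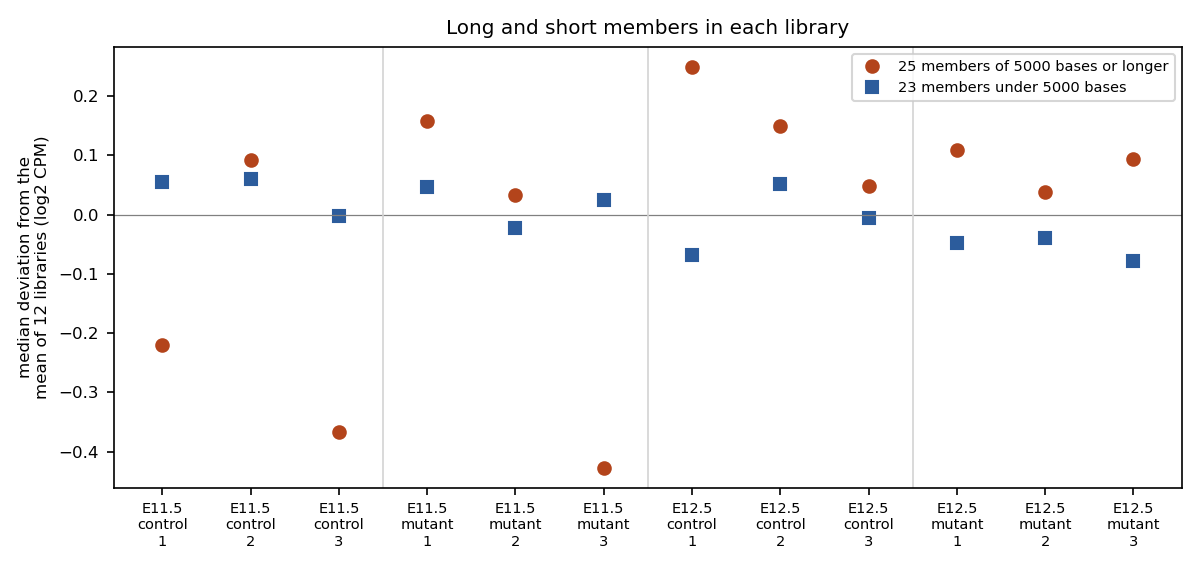
For each of the 12 libraries (x axis), the median deviation of log2 CPM from the mean over all libraries (y axis) is drawn for 25 long members (circles) and 23 short members (squares). The long members range from -0.43 to 0.25 and the short ones from -0.08 to 0.06, and long members are low in E11.5 control 1, E11.5 control 3 and E11.5 mutant 3.

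Related genes were set in proportion, as RPKM of one over RPKM of the other in the same library, with no test. Where the lengths of a pair differ, the proportion carries the length trend of its library, which was not corrected here. *Tet2* was 0.531 to 0.575 of *Tet3* in E11.5 controls and 0.688 to 0.715 in E12.5 controls. In mutants the proportions were 0.508 to 0.575 at E11.5 and 0.54 to 0.786 at E12.5, so these stages overlapped. *Crebbp* was 0.428 to 0.564 of *Ep300* in E11.5 controls and 0.56 to 0.63 in E12.5 controls, with an overlap. In mutants it was 0.464 to 0.56 at E11.5 and 0.56 to 0.639 at E12.5. *Ezh1* was 0.0853 to 0.11 of *Ezh2* in E11.5 controls and 0.132 to 0.137 in E12.5 controls, where the stages did not overlap. In mutants it was 0.1 to 0.132 and 0.116 to 0.148, where they did, and the gene lengths were 4194 and 2667 bases. *Arid1b* was 0.193 to 0.211 of *Arid1a* in E11.5 controls and 0.17 to 0.173 in E12.5 controls, the reverse direction. In mutants it was 0.191 to 0.193 and 0.185 to 0.203, and the stages overlapped. *Dnmt3b* was 0.129 to 0.143 of *Dnmt3a* in E11.5 controls and 0.178 to 0.26 in E11.5 mutants, then 0.111 to 0.149 in E12.5 controls and 0.177 to 0.188 in E12.5 mutants, without overlap of the genotypes at either stage. The lengths of this pair, 4322 and 9852 bases, are far apart.

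A wider list of 121 further chromatin genes, of which 118 were found and 115 tested, was read beside the members. At E11.5 and E12.5, 0 were called by edgeR, against 0.115% and 5.0% of all genes. An unadjusted p under 0.05 was found for 3 and 17 of them, and for 10.2% and 21.4% of all genes. Over both stages 2 were called, or 1.74%, against 6.85% of all genes. Of these, *Pcgf5*, a partner of the RING ligases, was upregulated by 0.29 (SE 0.08, adjusted p = 0.04, edgeR) and called in 7 of 20 alternative fits. *Whsc1*, the H3K36 methyltransferase gene that the study links to HIRA, stood at 176, 195 and 183 CPM in E11.5 controls and 199, 195 and 149 CPM in E11.5 mutants. At E12.5 it stood at 218, 205 and 193 CPM in controls and 188, 193 and 191 CPM in mutants, and its log2 fold changes were -0.02 and -0.09 (adjusted p = 0.981 and 0.489).

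Between stages 15 of the 115 wider genes were called, 13.0% against 12.2% of all genes, of which 13 were higher and 2 lower at E12.5. The lowest p among the higher ones were those of *Kmt5b* (0.37, adjusted p = 0.00863), *Phc3* (0.48, adjusted p = 0.00976) and *Hdac11* (0.35, adjusted p = 0.00998). *Kmt5b* methylates histone H4, *Phc3* belongs to PRC1 and *Hdac11* is the class IV deacetylase. The lower ones were *Suv39h2* (-0.31, adjusted p = 0.0222), an H3K9 methyltransferase, and *Pcgf5* (-0.27, adjusted p = 0.043). After length correction *Hdac11* (0.33, adjusted p = 0.00961) and *Suv39h2* (-0.42, adjusted p = 0.00662) were still called, while *Kmt5b* (0.11) and *Phc3* (0.17), of 9112 and 11066 bases, were not.

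Other cells of the hearts also differed between groups. At E12.5, 6 of 9 erythroid markers and 5 of 7 macrophage markers tested were called lower in mutants. The summed erythroid level was 3916 to 6038 CPM in controls and 2049 to 2824 CPM in mutants, and the summed macrophage level 118 to 144 CPM and 56.3 to 77.0 CPM. At E11.5, 0 markers of either list were called, with 7 of 9 erythroid and 0 of 7 macrophage values positive. Of 8 epicardial markers, *Msln* (1.03) and *Krt19* (1.06) were called higher at E12.5, where the median was 0.15 with 6 values positive and 2 negative. Their sum was 419 to 608 CPM in E12.5 controls and 589 to 652 CPM in E12.5 mutants. At E11.5, 0 epicardial markers were called, and 7 values were negative and 1 positive, with a median of -0.71. The E11.5 sum was 621 to 920 CPM in controls and 520 to 597 CPM in mutants. Liver markers had no call at E12.5 and summed to 3.6 to 5.4 CPM in controls and 2.7 to 49.5 CPM in mutants. The 8 cardiomyocyte markers had no call and summed to 12279.8 to 13047.4 CPM in controls and 12505 to 15376 CPM in mutants, so the labelled tissue was evident in every group. The 12 cell cycle genes had 0 calls for genotype at either stage. Between stages, 2 of these 12 were called lower at E12.5, *Ccnb1* (-0.24) and *Pcna* (-0.28), and 4 after length correction. Of 7 macrophage markers, *Csf1r* (1.20), *Adgre1* (1.56) and *Mrc1* (1.48) were called higher at E12.5, and 3 of 9 erythroid markers were called lower. The part of these cells in the values of the members was not tested.

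Promoter words were searched in the 300 bases around each RefSeq start, from 250 before to 50 after, on both strands. The study describes a GAGA motif in regions bound by HIRA, which lay mostly between genes or in introns. In the promoters searched here, the word GAGAGAGA was found in 4 of 38 members with a promoter (10.53%), against 4.551% of all genes with one. They were *Ehmt1*, *Hdac9*, *Jarid2* and *Prdm16*. Of these, *Hdac9* was called for genotype in the main fit at E12.5, where 5.0% of all genes were called. A link between the word and the call was not tested. E2F sites mark replication genes, and the words TTTGGCGC, TTTCGCGC, TTTCCCGC and TTTGCCGC were found in *Arid1a*, *Dnmt1*, *Ezh2* and *Suz12*, again 4 of 38, against 2.605% of all genes. None of these 4 genes was called for genotype. Each of these words holds a CG, and the windows of the members held a median of 21 CG against 6 in all windows. The shares were not adjusted for this. Windows of 30 bases with the word in capitals are shown for the called gene and for the PRC2 pair. They lie at chr12:34528881-34528910 (− strand), chr6:47595009-47595038 (− strand) and chr11:79992876-79992905 (+ strand).
*Hdac9*: caacttgagctGAGAGAGActgagaaaggg
*Ezh2*: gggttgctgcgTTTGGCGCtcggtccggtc
*Suz12*: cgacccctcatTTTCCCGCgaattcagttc
A match is a run of letters and not a measured binding site.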

How the data were processed

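RNA-seq libraries of whole embryonic hearts, 3 from each of 4 groups, were analysed. Per the labels the authors aligned reads with Bowtie2 (version 2) to mm10 and compared groups with DESeq, while the counter, annotation and strand setting are not given in the sources used here. The deposited values per library are headed RPKM, but each was found to be a count multiplied by gene length and a library factor, so they were treated as a score that the authors made and not as RPKM. The authors also deposited the mean raw count of each group, an expected count in the sense that it need not be whole, and these means fixed the scale. Their fold changes and p-values were not used. Dividing out length and library factor gave whole counts for 17827 of 19424 genes, within 4.8e-10 of a whole number, and 1597 genes had no count. A further 944 genes of the 20368 in the table lay outside the comparisons. Genes counted together under a joint name held 0.2267% of counts.

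Counts were tested in R 4.3.3 with edgeR 4.0.16 (TMM scaling, quasi-likelihood test, Benjamini-Hochberg adjustment over all genes whose RPKM averaged 0.5 or more), since counts allow a count model. The tests were also run on simulated counts, drawn without a gene length trend or a sex effect, so that check does not cover these features. Depth was 11994148 to 17483982 counts per library. Mutants were compared with controls at each stage and over both stages with stage as a covariate, E12.5 with E11.5 with genotype as a covariate, and the mutant effects between stages by an interaction. Alternatives were no filter, median-ratio scaling, a length correction (loess on log2 length per library, span 0.3), a sex term, a replicate block, limma 3.58.1 on log2(RPKM + 0.5), DESeq2 1.42.0, all 12 libraries in 1 fit, 1 genotype alone, a 1.5-fold limit and leaving out libraries. Values in every library were given for members called for genotype and for up to 6 members in each direction called between stages. Members of lowest p over both stages were added up to 12. Exceptions were *Chd2* and, at E11.5, *Bmi1*, given as group means, and *Kdm6b* and *Chd4*, given per library at E11.5 only. From the wider list the 3 called genes of lowest p in each direction and *Whsc1* were named, except 1 gene that is not reported here. Members, wider genes and markers were chosen with earlier results of these data known. Promoters came from RefSeq (GRCm38.p6).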

Additional observations from a re-analysis of the deposited data

How the results depend on the processing

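At E12.5, 1 member was called for genotype (5.0% of all genes), 4 after length correction (4.67%) and 2 with DESeq2 (7.07%). With all 12 libraries in 1 fit 0 members and 1.2% of all genes were called, and with a 1.5-fold limit 0 and 2.95%. At E11.5 the fit of all 12 libraries called 1 in place of 0, and 2.19% in place of 0.115% of all genes. Over both stages 2 were called (6.85% of all genes), 1 without the filter (4.8%) and 5 after length correction (9.29%). With the 1.5-fold limit 0 were called (3.22%). Without the E11.5 control and mutant replicates numbered 3 there were 4 (5.69%), and without single libraries 1 to 3 (4.19% to 6.6%). Between stages 6 were called (12.2% of all genes), 3 with a sex term (5.79%) and 10 with DESeq2 (20.2%). In mutant libraries alone 0 were called (0.556%), with the 1.5-fold limit 2 (3.78%) and without single libraries 2 to 10 (5.32% to 19.4%). For the wider genes, length correction gave 2 in place of 0 at E12.5 (4.67% in place of 5.0% of all genes). Over both stages their 2 became 1 without the filter, 6 after length correction, 1 with a sex term and 7 with DESeq2. They became 0 with the 1.5-fold limit and 1 to 2 without single libraries. Of all genes, 6.75% were called with a sex term and 10.1% with DESeq2, the other shares being those above. Between stages their 15 became 5 with a sex term, 29 with DESeq2 and 24 in controls alone (11.4% of all genes). In mutants alone they became 0 and with the 1.5-fold limit 1. Without the E11.5 replicates numbered 3 they became 4 (5.95%), and without single libraries 3 to 33. The other shares are those above. The length slope at E11.5, 0.02, ran from -0.026 to 0.12 without single libraries, and that of the difference between stages, -0.10, from -0.19 to -0.051. The causes were not tested.

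The main fits used no pairing of samples. Deviations of same-numbered control and mutant libraries from their group means had correlations of -0.028, 0.426 and 0.293 at E11.5. At E12.5 these were 0.023, 0.059 and 0.023. Between libraries of different number they ran from -0.488 to 0.234 at E11.5 and from -0.072 to 0.039 at E12.5. Since the deviations of 3 libraries cancel out within a group, these values cannot decide whether replicate numbers pair the samples. With a replicate block 9 members were called between stages (16.7% of all genes) and 3 over both stages (7.07%). *Hdac9* was added over both stages (-0.38, adjusted p = 0.0387, edgeR). Of the wider genes 26 and 1 were called.

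Of the signs that reversed, those at E11.5 with a sex term were *Chd4* (-0.036), *Smarca2* (-0.083) and *Crebbp* (-0.53). After length correction *Jarid2* was -0.0044 and *Tet3* -0.023 between stages, and *Hira* 0.048 and *Whsc1* 0.066 at E12.5, and limma gave *Hira* 0.00035 there. *Dnmt3b* between stages was 0.079 in controls alone. Leaving out libraries, the E11.5 pair numbered 3 included, moved the E11.5 values from -0.073 to 0.040 for *Eed*, -0.18 to 0.099 for *Chd2*, -0.033 to 0.46 for *Crebbp*, -0.15 to 0.056 for *Tet2* and -0.098 to 0.095 for *Whsc1*. It moved the E12.5 values from -0.025 to 0.035 for *Eed* and -0.14 to 0.099 for *Hira*, and the stage value of *Dnmt3b* from -0.17 to 0.027. None of these reversed values passed the threshold.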
